A study of Mus musculus with 6 samples.

Results

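The Clca genes encode the chloride channel regulators, calcium-activated, a family that sits as a cluster on mouse chromosome 3. The 4 members described here, Clca1, Clca3b, Clca4a and Clca4b, were taken by gene symbol from the 21878 genes of the deposited expression table, and they were selected on their FPKM in these same 6 libraries, which were known to differ between groups. Their levels and differences are therefore given as a description with no test. The tests below concern the other Clca genes, the neighbours of the cluster and lists of other genes. The lists too were chosen with earlier results of these data known.

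The libraries were RNA-seq of intestinal crypts from C57BL/6 mice, in 3 groups of 2. The AIR + MPLA and AIR groups were both taken 3 days after abdominal irradiation, and the AIR + MPLA mice also received MPLA, monophosphoryl lipid A, which activates the receptor TLR4; the Control mice were neither irradiated nor given MPLA, as far as the labels say. The labels name no altered allele, and no group of unirradiated mice with MPLA was analysed here, so an effect of MPLA without irradiation was not measured. MPLA is named in the sample titles and the design text; the age of the mice and the doses of radiation and MPLA are not given in the labels used here. The replicates are numbered 1 and 3 in the AIR + MPLA and AIR groups and 2 and 3 in Control; nothing in the labels says that they came from separate mice, so p-values speak only of the spread among these libraries, part of which may be technical.

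CLCA proteins were first taken for chloride channels, but they are proteins of the secretory pathway with a metalloprotease domain that cut themselves, and several raise calcium-activated chloride currents through other channels. The human CLCA1 protein does this through the channel TMEM16A, which is encoded by Ano1 in the mouse. Mouse Clca1, once named gob-5, is a secreted product of goblet cells and a component of intestinal mucus. Clca4a is known from enterocytes, the absorptive cells that cover the villus. In the gut, chloride secretion draws water into the lumen, and most of it leaves crypt cells through CFTR.

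Promoters of Clca3b and Clca4b, 2 of the 4 members, and of the other Clca genes Clca3a1 and Clca2 were read from RefSeq for GRCm38.p6. The sequences of Clca4b and Clca3a1 are shown because these genes stand on either side of Clca3b in the cluster and their start regions hold different motifs. Clca3a1 is not the next gene to Clca3b. Clca3a2 lies between them and was left out of the promoter search. Each is the 250 bases before the annotated start on the minus strand, at chr3:144932530-144932779 for Clca4b and chr3:144760978-144761227 for Clca3a1, and the capitals mark the matches to the motifs named below. The TATA box and ISRE matches read on the opposite strand and so appear as their reverse complements.
Clca4b: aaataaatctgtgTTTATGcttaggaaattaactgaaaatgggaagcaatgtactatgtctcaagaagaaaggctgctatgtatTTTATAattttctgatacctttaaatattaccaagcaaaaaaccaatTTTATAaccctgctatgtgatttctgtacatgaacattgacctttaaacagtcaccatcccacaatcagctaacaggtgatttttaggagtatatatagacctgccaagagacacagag
Clca3a1: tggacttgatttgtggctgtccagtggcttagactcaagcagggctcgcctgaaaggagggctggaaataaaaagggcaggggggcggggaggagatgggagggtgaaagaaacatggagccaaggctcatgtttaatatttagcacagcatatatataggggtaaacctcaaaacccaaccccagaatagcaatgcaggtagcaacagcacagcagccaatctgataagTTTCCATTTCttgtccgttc
The longest exact run shared by any pair of the 4 promoters was 7 to 9 bases. The GC content was 33.2% in Clca4b and 48.8% in Clca3a1. Among 5 motifs searched on both strands, the CDX core TTTATG, bound by the caudal factors of intestinal epithelium, was found at base -237 before the start of Clca4b and base -30 of Clca3b, and 11.1% of 27025 promoter windows of that length hold it. The TATA box letters TATAAA were found at 2 places in Clca4b and in none of the other 3, against 13.0% of all windows with a match. The ISRE core of interferon-responsive factors (GAAA, any 2 bases, GAAA) was found once, in Clca3a1, with 3.04% of all windows holding it. Neither the TCF/LEF core CTTTGA (14.0% of windows) nor the STAT site (TTC, any 4 bases, GAA; 5.86%) was found in any of the 4. No match overlapped another, and a match describes letters, not binding.

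The 4 members had 4 different patterns over the groups. Clca1 was lower in all irradiated libraries, Clca3b was lower in AIR and in between in AIR + MPLA, and Clca4a was high in AIR alone. Clca4b was lowest in AIR + MPLA, and its AIR libraries lay on both sides of Control. Levels are FPKM, fragments scaled for transcript length and for the fragments of the library, which allows a rough comparison between genes. Sequence shared among Clca genes and a repeat inside Clca3b limit that comparison, as described below. Because these are bulk crypts, fewer cells of a type and less RNA per cell cannot be told apart in any result below.

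The deposited FPKM summed to 441942 and 454781 in AIR + MPLA, 398242 and 419566 in AIR, and 381669 and 492247 in Control, and 9842 to 10179 genes per library reached 1 FPKM. Read depth is unknown. For Control replicate 2, its own file and the series-table column matched to it by number share 13 values above 0 of 21878 genes. The FPKM of that column summed to 503961, nearer to Control replicate 3 than to the own file. Whether both come from 1 library was not tested. That column is called the other version of Control replicate 2 here. The own file is used throughout; in the other version Clca1 was at 92.1, Clca3b at 226, Clca4a at 28.8 and Clca4b at 128 FPKM, and for each member the groups that overlapped or stood apart were the same with either.

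**Figure D1:**
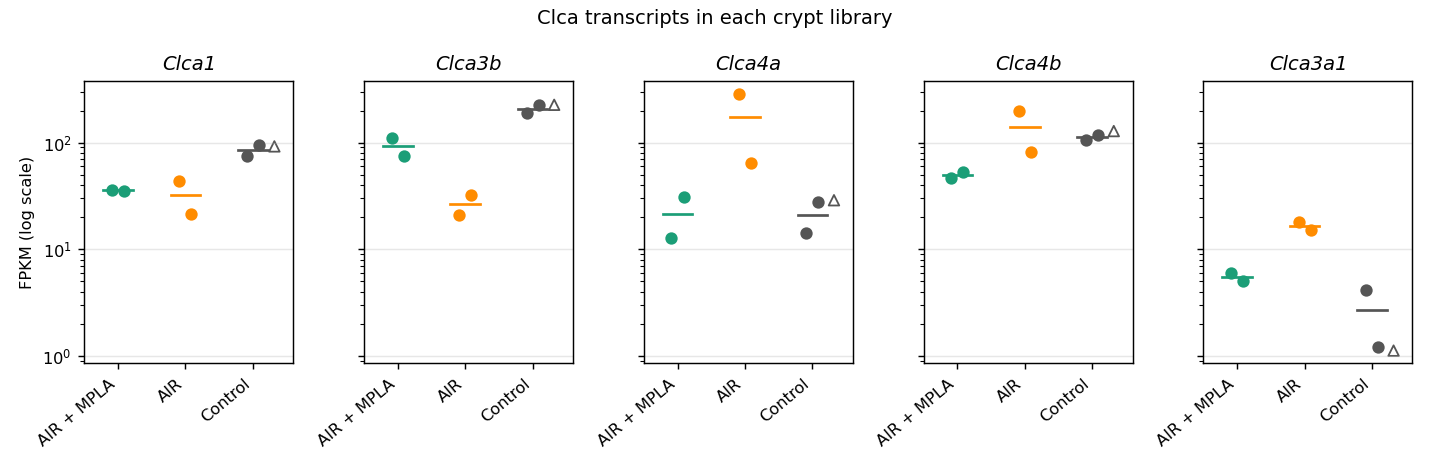
FPKM of the 4 Clca members and of Clca3a1 in each library on a log10 axis. AIR + MPLA, AIR and Control stand from left to right. Points are libraries and bars are group means. The open triangle is the series-table column matched by number to Control replicate 2. Clca3b is lowest at 20.9 and 32.0 FPKM in AIR, and Clca4a is highest in AIR at 287 and 64.8 FPKM.

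Clca1, the goblet cell member, was measured at 35.7 and 35.5 FPKM in AIR + MPLA libraries, 43.6 and 21.3 FPKM in AIR libraries, and 75.2 and 94.3 FPKM in Control libraries. All 4 irradiated libraries lay below both Control libraries, which was so for 15.0% of the 10415 genes tested, and the AIR + MPLA values lay between the 2 AIR values. The group means were 35.6 ± 0.151 FPKM in AIR + MPLA, 32.5 ± 15.8 FPKM in AIR and 84.8 ± 13.5 FPKM in Control (SD, n = 2 each). On the log2(FPKM + 1) scale the difference was -1.43 (SE 0.31) for AIR against Control, -1.22 (SE 0.31) for AIR + MPLA against Control and 0.21 (SE 0.31) for AIR + MPLA against AIR. The last of these has no stable sign: it was 0.71 without AIR replicate 1 and -0.29 without AIR replicate 3. The difference of AIR against Control was -1.93 without AIR replicate 1 and -0.93 without AIR replicate 3.

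Clca3b had the highest mean of the 4 members in Control and the lowest in AIR. It was measured at 112 and 74.4 FPKM in AIR + MPLA libraries, 20.9 and 32.0 FPKM in AIR libraries, and 191 and 225 FPKM in Control libraries. No 2 groups overlapped, and the order was Control above AIR + MPLA above AIR. Means were 93.0 ± 26.3 FPKM in AIR + MPLA, 26.4 ± 7.82 FPKM in AIR and 208 ± 23.5 FPKM in Control (SD, n = 2 each). The AIR mean was 0.127 of the Control mean, the AIR + MPLA mean was 3.52 times the AIR mean, and the AIR + MPLA mean was 0.447 of the Control mean. The log2 differences were -2.95 for AIR against Control, 1.78 for AIR + MPLA against AIR and -1.18 for AIR + MPLA against Control (SE 0.27 each). Leaving out any 1 library kept these between -3.25 and -2.66, between 1.48 and 2.07, and between -1.47 and -0.89, in the same order. Its SE was the smallest of the 4 members.

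Clca4a, the villus member, was measured at 12.7 and 30.6 FPKM in AIR + MPLA libraries, 287 and 64.8 FPKM in AIR libraries, and 14.1 and 27.8 FPKM in Control libraries. Both AIR libraries lay above all others, and AIR + MPLA and Control overlapped over nearly the same range. The AIR libraries themselves stood 4.42-fold apart, so the AIR mean of 176 ± 157 FPKM has an SD almost as large as the mean, beside 21.6 ± 12.7 FPKM in AIR + MPLA and 20.9 ± 9.68 FPKM in Control (SD, n = 2 each). The log2 difference was 2.72 for AIR against Control and -2.73 for AIR + MPLA against AIR (SE 0.71 each). Without AIR replicate 1 these were 1.66 and -1.67, and without AIR replicate 3 both had a size of 3.79, positive for AIR against Control. The size of the AIR value therefore rests on which AIR library is read. AIR + MPLA against Control came to -0.00 (SE 0.71), and to -0.50 with the other deposited version of Control replicate 2. It had no stable sign: it was 0.60 without AIR + MPLA replicate 1, -0.61 without AIR + MPLA replicate 3, -0.47 without Control replicate 2 and 0.46 without Control replicate 3.

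Clca4b was measured at 46.6 and 53.1 FPKM in AIR + MPLA libraries, 197 and 81.8 FPKM in AIR libraries, and 107 and 118 FPKM in Control libraries. The AIR + MPLA libraries lay below all 4 others, while 1 AIR library lay above and 1 below both Control libraries. Means were 49.8 ± 4.63 FPKM in AIR + MPLA, 139 ± 81.6 FPKM in AIR and 112 ± 7.84 FPKM in Control (SD, n = 2 each). The log2 difference was -1.34 for AIR + MPLA against AIR, -1.16 for AIR + MPLA against Control and 0.18 for AIR against Control (SE 0.37 each). AIR against Control changed sign with the library left out, at -0.45 without AIR replicate 1 and 0.81 without AIR replicate 3. AIR + MPLA against AIR was -0.71 without AIR replicate 1 and -1.97 without AIR replicate 3.

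The share of genes whose libraries do not overlap shows how common such separations are in groups of 2. Of the 4 members, 3 did not overlap between AIR and Control, beside 63.9% of all genes tested: Clca1 and Clca3b were lower in AIR (41.7% of genes) and Clca4a was higher (22.2%). Between AIR + MPLA and AIR 3 of the 4 did not overlap, beside 77.2%: Clca4a and Clca4b were lower in AIR + MPLA (29.7% of genes) and Clca3b was higher (47.5%). Between AIR + MPLA and Control 3 of the 4 did not overlap, all lower in AIR + MPLA, beside 49.5% of genes in either direction 24.5% in that direction and 25.0% in the other. All 4 members passed the filter of at least 1 FPKM in 2 libraries, each in every group, so none entered through 1 group alone. The AIR + MPLA against AIR and AIR against Control comparisons share the AIR libraries, and opposite signs in them are partly built in.

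**Figure D2:**
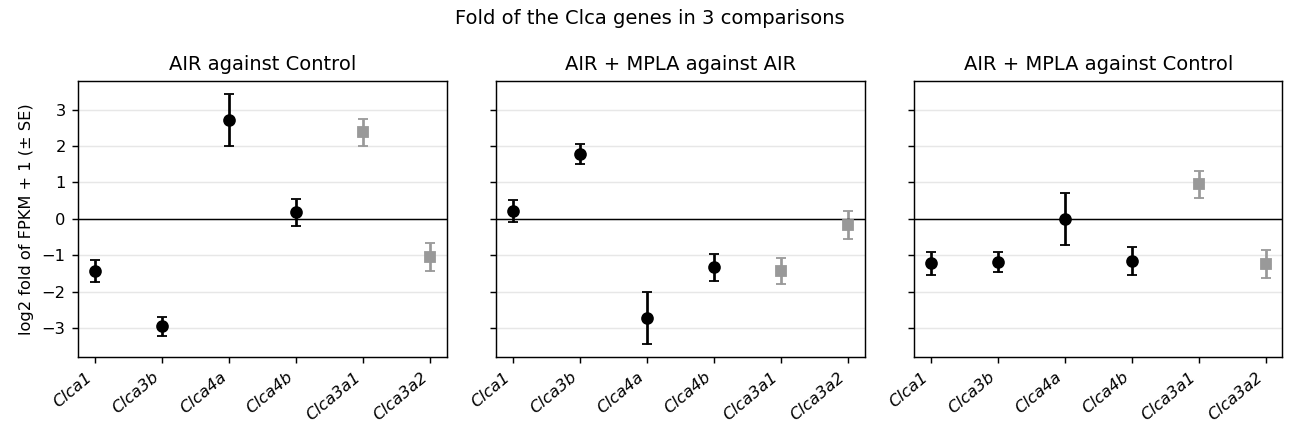
Differences on the log2(FPKM + 1) scale for the Clca genes, with the SE of the fit as bars, in each comparison; black circles are the 4 members and grey squares Clca3a1 and Clca3a2. Clca3b runs from -2.95 in AIR against Control to 1.78 in AIR + MPLA against AIR, and Clca4a from 2.72 to -2.73.

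The make-up of the family differed more than its sum. The summed level of the 4 members was 207 and 194 FPKM in AIR + MPLA libraries, 548 and 200 FPKM in AIR libraries, and 387 and 465 FPKM in Control libraries. Clca3b made up 54.0% and 38.4% of that sum in AIR + MPLA, 3.81% and 16.0% in AIR, and 49.4% and 48.3% in Control. It was the leading member in all AIR + MPLA and Control libraries, and it was outweighed in AIR by both Clca4 genes. Clca4a made up 6.12% and 15.8% in AIR + MPLA, 52.3% and 32.4% in AIR, and 3.63% and 5.98% in Control. Clca1 made up 17.3% and 18.3% in AIR + MPLA, 7.96% and 10.7% in AIR, and 19.4% and 20.3% in Control, and Clca4b stayed between 22.5% and 40.9% in all 6 libraries. The ratio of Clca4a to Clca4b, the closest relatives among the members, was 0.272 and 0.575 in AIR + MPLA, 1.45 and 0.793 in AIR, and 0.132 and 0.236 in Control. Ranked by FPKM among all genes of a library, Clca4a was 4097th and 2099th in AIR + MPLA, 226th and 910th in AIR, and 3797th and 2199th in Control.

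**Figure D3:**
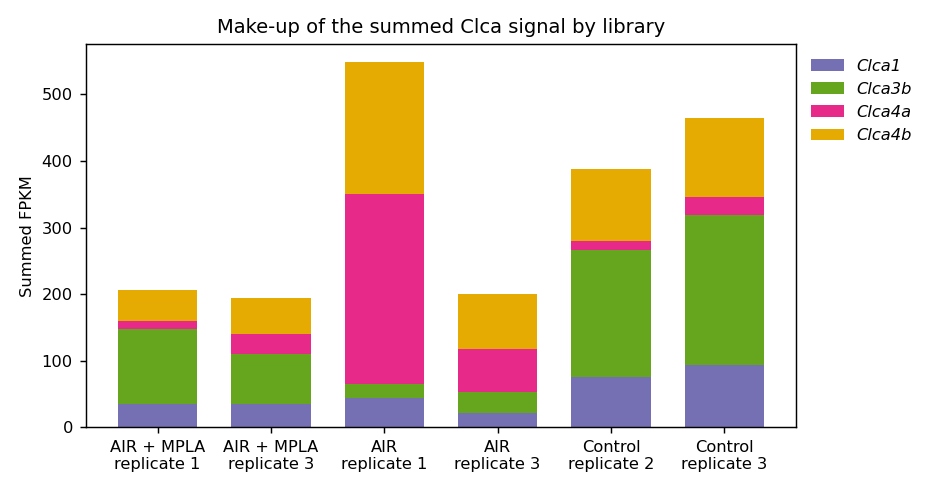
Summed FPKM of the 4 members in each library, stacked by member, with AIR + MPLA, AIR and Control from left to right. Clca3b holds 54.0% and 38.4% of the bar in AIR + MPLA, 3.81% and 16.0% in AIR, and 49.4% and 48.3% in Control.

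The other 3 Clca genes were in the files and were tested. They are the rest of a family whose members were chosen with earlier results of these data known, so their tests are not free of that choice. Clca3a1, whose product is among the family's known modulators of chloride currents in the mouse, was measured at 6.00 and 5.06 FPKM in AIR + MPLA libraries, 18.1 and 15.1 FPKM in AIR libraries, and 4.17 and 1.21 FPKM in Control libraries. AIR lay above both other groups without overlap, and AIR + MPLA lay above Control. Clca3a1 rose in AIR against Control by 2.38 (log2 scale, SE 0.37, limma adjusted p = 0.00955) and fell in AIR + MPLA against AIR by 1.43 (SE 0.37, adjusted p = 0.0313). AIR + MPLA against Control did not pass, at 0.95 (adjusted p = 0.272), but passed with the other deposited version of Control replicate 2 (1.59, adjusted p = 0.000466) and without Control replicate 2 (1.56, adjusted p = 0.00475). The first call was lost without AIR replicate 1 (adjusted p = 0.067); the second was lost without any 1 irradiated library (adjusted p = 0.103 to 0.168), with no filter on low values (0.0814) and with a pseudocount of 0.1 (0.0509). Clca3a2, the nearest relative of Clca3a1, was measured at 1.64 and 0.937 FPKM in AIR + MPLA, 0.824 and 2.59 FPKM in AIR, and 6.00 and 3.07 FPKM in Control. It lay below Control in all irradiated libraries, though not with the other version of Control replicate 2 (2.53 FPKM), where AIR and Control overlapped. No comparison passed (AIR against Control -1.06, adjusted p = 0.0807, and 0.035 after correction for GC content). Clca2 reached at most 0.0688 FPKM in any library and was not tested, and the pseudogene Clca4c-ps was not analysed here.

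How far the FPKM of these genes can be told apart depends on how alike their transcripts are. In the GENCODE annotation of GRCm38.p6, the coding sequences of Clca3a1 and Clca3a2 were 97.08% identical and those of Clca4a and Clca4b were 96.04% identical. Clca3b was 86.43% identical to Clca3a1 and 86.58% to Clca3a2, and Clca1 was at most 62.06% identical to any other gene of the family. Of the 50-base stretches in the annotated transcripts of Clca4a, 41.0% also occur in another gene, with 23.6% in Clca4c-ps, against 24.8% for Clca4b, 6.68% for Clca3b and 0 for Clca1. With 100-base stretches the shares were 21.9% for Clca4a, 6.49% for Clca4b, 0.608% for Clca3b and 0 for Clca1. Reads from these shared stretches could have been assigned to either copy or dropped, so the levels of Clca4a, Clca4b, Clca3a1 and Clca3a2 are uncertain in a way that those of Clca1 are not. Clca3b holds a stretch of 399 bases that occurs again inside its own transcript, against at most 14 bases in any other Clca gene. Reads from that stretch could also have been dropped, and how this bears on the FPKM of Clca3b was not tested. Clca4a and Clca4b did not move together in every library: AIR + MPLA lay below Control for Clca4b and overlapped it for Clca4a.

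The 7 genes lie within 370 kb of chromosome 3, from 144729677 to 145099443 in GRCm38.p6, in the order Clca3a1, Clca3a2, Clca3b, Clca4b, Clca4a, Clca1 and Clca2. Clca3b (gene ID 229927) spans 144822623 to 144849302, Clca4b (99709) 144910921 to 144932529, Clca4a (99663) 144952486 to 144975045 and Clca1 (23844) 145004537 to 145032776. In AIR, Clca3b was lower and Clca4a higher than in Control, and Clca4b, which lies between them on the chromosome, overlapped Control. Of 15 other genes within 1 Mb of the cluster, 10 were tested. Ddah1, whose product breaks down the nitric oxide synthase inhibitor asymmetric dimethylarginine, was measured at 9.64 and 9.58 FPKM in AIR + MPLA, 7.76 and 4.62 FPKM in AIR, and 0.494 and 0.724 FPKM in Control. Both irradiated groups lay far above Control, by 2.73 (SE 0.23, adjusted p = 0.0123) for AIR + MPLA and 2.13 (SE 0.23, adjusted p = 0.00546) for AIR. Selenof, a selenoprotein of the endoplasmic reticulum, rose in AIR against Control (0.67, adjusted p = 0.0403) and fell in AIR + MPLA against AIR (-0.63, adjusted p = 0.0446). Odf2l fell in AIR + MPLA against AIR (-0.96, adjusted p = 0.0336) and was at 0.74 in AIR against Control (adjusted p = 0.0705). Lmo4, Hs2st1, Sh3glb1, Znhit6, Bcl10, 2410004B18Rik and Syde2 passed in none of the 3 comparisons.

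**Figure D4:**
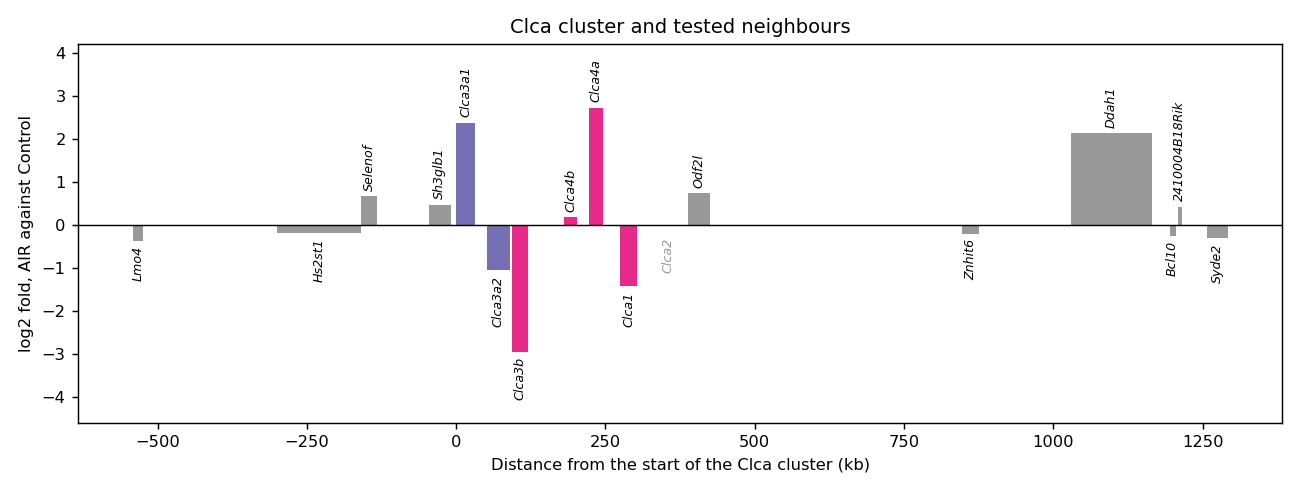
Difference of AIR against Control on the log2(FPKM + 1) scale for each tested gene in and around the Clca cluster, plotted by distance in kb from the start of the cluster; each bar is as wide as its gene, pink for the 4 members, violet for the other tested Clca genes and grey for neighbours. Clca3b (-2.95) and Clca4a (2.72) lie in the same cluster and point in opposite directions.

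Lists of genes for the cell types that the members are named after, and for chloride transport, were read beside the members. Over all genes tested, 8.05% were called higher and 18.7% lower in AIR against Control (26.7% in all), 19.5% higher and 9.9% lower in AIR + MPLA against AIR (29.4%), and 0.643% higher and 0.835% lower in AIR + MPLA against Control (1.48%). The median difference over all genes was -0.13, 0.15 and -0.03 on the log2 scale in the same order. It was 0.02, 0.01 and -0.02 after median-ratio scaling. Without any 1 of the 4 irradiated libraries, limma called 0 genes in AIR + MPLA against AIR, with 2457 to 3665 at an unadjusted p under 0.05, so every list count in that comparison rests on all 4.

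Of the 26 goblet cell genes tested, 0 rose and 2 fell in AIR against Control by limma (median -0.03), 4 rose and 0 fell in AIR + MPLA against AIR (median 0.34), and 0 passed in AIR + MPLA against Control. At an unadjusted p under 0.05 these were 4 higher and 3 lower, 6 higher and 0 lower, and 9 higher and 1 lower. Fcgbp, a large mucus protein, was measured at 510 and 526 FPKM in AIR + MPLA, 165 and 129 FPKM in AIR, and 287 and 367 FPKM in Control; it fell in AIR against Control (-1.15, adjusted p = 0.013) and rose in AIR + MPLA against AIR (1.82, adjusted p = 0.0153). Muc2, the gel-forming mucin of the gut, was at 58.8 and 60.2 FPKM in AIR + MPLA, 29.5 and 19.1 FPKM in AIR, and 43.2 and 35.6 FPKM in Control, and it rose in AIR + MPLA against AIR (1.29, adjusted p = 0.0166). Spdef, the transcription factor of goblet cell maturation, did not pass in AIR against Control (0.03, adjusted p = 0.933), but was at -0.33 and passed with the other version of Control replicate 2 (adjusted p = 0.0421). It did not pass in AIR + MPLA against AIR (0.31, adjusted p = 0.313). For both mucus genes the AIR + MPLA libraries lay above both Control libraries, whereas for Clca1 they lay below both. The other gene that fell in AIR was Ccl6, a chemokine listed with goblet cells (-1.69, adjusted p = 0.024). Without AIR replicate 1 or AIR replicate 3, neither Fcgbp nor Ccl6 passed in AIR against Control. With the other version of Control replicate 2, 12 goblet genes fell and 2 rose there, beside 3884 lower and 2606 higher of 10405 genes. With GC correction 3 rose and 3 fell, beside 1241 higher and 1320 lower of 10415 genes. The counts in AIR against Control also moved when 1 Control library was left out. In AIR + MPLA against Control, the count of 0 did not hold without Control replicate 3.

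Crypt stem and progenitor genes fell in AIR. Of 29 tested, 22 fell and 0 rose in AIR against Control by limma (median -1.13; 25 and 0 at an unadjusted p under 0.05), 12 rose and 1 fell in AIR + MPLA against AIR (median 0.50), and 1 fell and 0 rose in AIR + MPLA against Control (median -0.61; 19 and 0 unadjusted). Lgr5, the marker of crypt base columnar stem cells, was measured at 1.01 and 0.577 FPKM in AIR + MPLA, 0.266 and 0.269 FPKM in AIR, and 4.22 and 3.56 FPKM in Control. It fell in AIR against Control (-1.94, adjusted p = 0.00453) and in AIR + MPLA against Control (-1.46, adjusted p = 0.0204). Mcm2, which encodes part of the helicase that opens DNA for replication, fell in AIR against Control (-1.35, adjusted p = 0.00538) and rose in AIR + MPLA against AIR (1.06, adjusted p = 0.0153). Ephb2, a receptor that keeps cells in position in the crypt, rose in AIR + MPLA against AIR (0.92, adjusted p = 0.0154), and Hmgb2 fell (-0.95, adjusted p = 0.0197). Without AIR replicate 1, 4 of these genes fell in AIR against Control, and 6 rose in AIR + MPLA against AIR after correction for GC content or with no filter on low values. In AIR + MPLA against Control, 13 fell with the other version of Control replicate 2 and 9 without Control replicate 3, against 0 without any 1 irradiated library.

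The villus enterocyte genes did not go one way. Of 32 tested, 10 rose and 2 fell in AIR against Control (median 0.45), 5 rose and 7 fell in AIR + MPLA against AIR (median 0.04), and 1 rose and 1 fell in AIR + MPLA against Control (median 0.33). Nt5e, an ectoenzyme that makes adenosine, was measured at 3.50 and 9.46 FPKM in AIR + MPLA, 100 and 32.1 FPKM in AIR, and 1.97 and 1.97 FPKM in Control. It rose in AIR against Control (4.29, adjusted p = 0.00732) and fell in AIR + MPLA against AIR (-3.08, adjusted p = 0.0176). The fatty acid binding protein gene Fabp2 likewise rose in AIR (1.48, adjusted p = 0.0103) and fell in AIR + MPLA against AIR (-1.42, adjusted p = 0.0158). Lct, which encodes lactase, fell in AIR against Control (-3.08, adjusted p = 0.00453) and rose in AIR + MPLA against AIR (1.25, adjusted p = 0.0233), and so did Vil1, the microvillus protein villin (-0.63, adjusted p = 0.0453, and 0.69, adjusted p = 0.0341). Anpep, a brush border peptidase, rose in AIR + MPLA against AIR (1.12, adjusted p = 0.0187). No call of a villus gene as higher in AIR against Control held without AIR replicate 1. With GC correction 1 rose and 2 fell in AIR + MPLA against AIR, beside 812 higher and 591 lower of 10415 genes. With the other version of Control replicate 2, 14 rose and 7 fell in AIR against Control, beside 2606 and 3884 of 10405 genes. In AIR + MPLA against Control 7 passed as higher with that version, beside 576 of all genes.

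**Figure D5:**
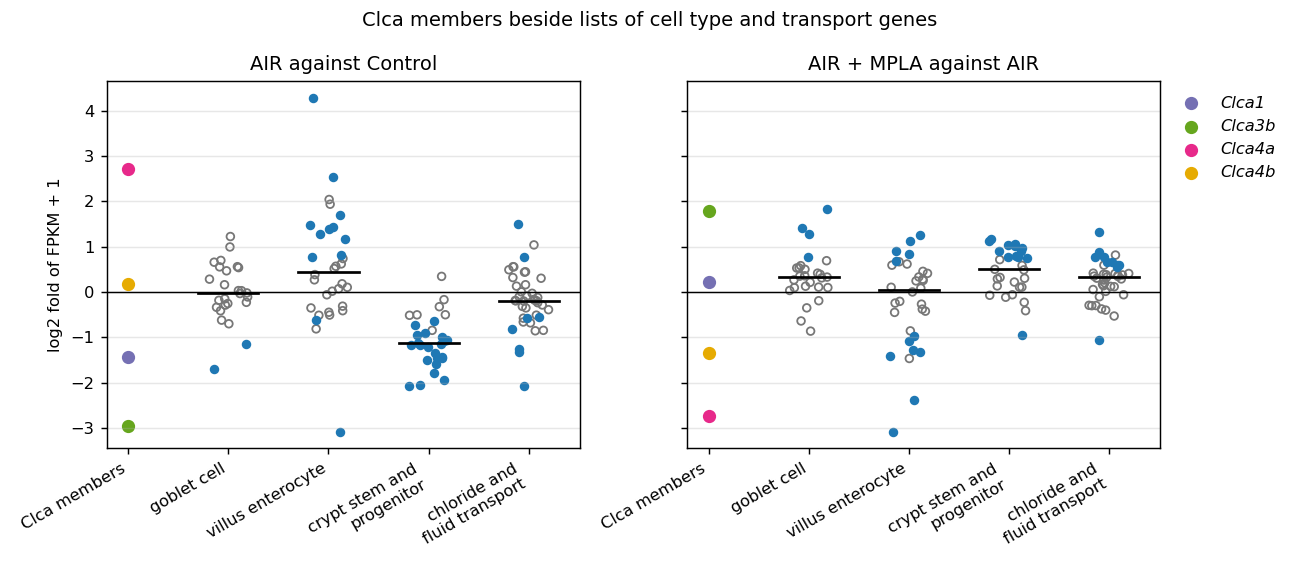
Differences on the log2(FPKM + 1) scale of the genes of the goblet cell, crypt, villus enterocyte and chloride transport lists in 2 comparisons. Each point is a gene, filled where it passed, lines are list medians, and the 4 Clca members stand at the left. In AIR against Control the crypt list has a median of -1.13, the villus list 0.45 and the goblet cell list -0.03.

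Genes of chloride and fluid transport, not of secretion alone, were measured apart from the Clca genes. Of 40 tested, 2 rose and 6 fell in AIR against Control (median -0.19), 9 rose and 1 fell in AIR + MPLA against AIR (median 0.34), and 1 rose and 2 fell in AIR + MPLA against Control (median 0.08). Kcnq1, a potassium channel that sustains chloride secretion, fell in AIR (-1.31, adjusted p = 0.00649) and rose in AIR + MPLA against AIR (1.31, adjusted p = 0.0153). Kcnn4, the calcium-activated potassium channel of the epithelium, fell in AIR (-1.26, adjusted p = 0.00782) and rose in AIR + MPLA against AIR (0.88, adjusted p = 0.0192). Clic6 fell in AIR (-2.07, adjusted p = 0.00471), while Slc4a7, a sodium bicarbonate cotransporter, rose in AIR (1.49, adjusted p = 0.0128) and fell in AIR + MPLA against AIR (-1.06, adjusted p = 0.0304). Guca2b, the precursor of uroguanylin, rose in AIR (0.78, adjusted p = 0.0318). Cftr was at 19.5 and 16.1 FPKM in AIR + MPLA, 20.0 and 24.2 FPKM in AIR, and 35.5 and 17.9 FPKM in Control, and passed in none of the 3 comparisons. Ano1, the channel gene that CLCA1 acts on, was between 0.211 and 0.598 FPKM in all 6 libraries and was not tested. The 9 genes that rose in AIR + MPLA against AIR stood beside 19.5% of all genes called higher there. The count was 2 under median-ratio scaling, beside 1078 of 10415 genes called higher, and 2 with GC correction, beside 812. With the other version of Control replicate 2, 6 rose and 11 fell in AIR against Control, beside 2606 and 3884 of 10405 genes. In AIR + MPLA against Control 11 rose with that version, beside 576 of all genes.

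Interleukin-13 is a known inducer of Clca1 in the mouse airway, so genes of that axis were listed too. Of the 25 genes listed, 13 were tested, and 6 to 8 of the 25 were at 0 FPKM in each library. By limma 1 rose in AIR against Control, Arg1 (0.68, adjusted p = 0.0456). In the same comparison 2 fell, Dclk1 (-1.08, adjusted p = 0.00755) and Pou2f3 (-1.02, adjusted p = 0.0104). Over all genes 8.05% rose and 18.7% fell there. In AIR + MPLA against AIR 1 fell (9.9% of all genes), and 1, Dclk1, fell in AIR + MPLA against Control (0.835%). The gene that fell in AIR + MPLA against AIR was Il13ra1, a receptor subunit (-1.02, adjusted p = 0.0188). Dclk1 and Pou2f3 are also genes of tuft cells.

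Markers of other cells moved between the groups, and their part in the values of the members was not tested. The 4 tuft cell markers summed to 1.98 and 2.27 FPKM in AIR + MPLA, 1.76 and 0.949 FPKM in AIR, and 10.1 and 12.6 FPKM in Control, and all 4 fell in AIR against Control, among them Alox5ap (-2.10, adjusted p = 0.00453). The 4 T cell markers summed to 10.2 and 15.3 FPKM in AIR + MPLA, 15.3 and 15.7 FPKM in AIR, and 56.5 and 95.0 FPKM in Control, and all 4 fell in both irradiated groups, with Ccl5 at -2.24 (adjusted p = 0.00733) in AIR against Control. Paneth cell markers, 4 found, summed to 3519 and 2699 FPKM in AIR + MPLA, 1857 and 2142 FPKM in AIR, and 3654 and 12848 FPKM in Control, and 2 of the 4 fell in AIR, Lyz1 (adjusted p = 0.0384) and Itln1 (adjusted p = 0.0399). The villus list summed to 16341 and 19803 FPKM in AIR + MPLA, 25758 and 19235 FPKM in AIR, and 9863 and 12162 FPKM in Control, and the crypt list to 1047 and 891 FPKM in AIR + MPLA, 617 and 869 FPKM in AIR, and 1752 and 1575 FPKM in Control. The goblet cell list summed to 9072 and 9451 FPKM in AIR + MPLA, 7621 and 7738 FPKM in AIR, and 5511 and 9627 FPKM in Control. Of the 3 enteroendocrine markers only Chga passed, higher in AIR + MPLA against AIR (adjusted p = 0.0263), and of the pancreatic acinar markers Cela1 rose in AIR (adjusted p = 0.0102). Macrophage markers summed to at most 1.14 FPKM and fibroblast and smooth muscle markers to at most 0.645 FPKM in any library, while erythrocyte markers summed to between 1.35 and 22.2 FPKM, highest in Control replicate 3, and passed in no comparison.

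The genes whose pattern over the 6 libraries was most like each member differed from member to member. This likeness is Pearson's r of log2(FPKM + 1) over 6 libraries in 3 groups, so it mostly restates group means and carries no test. For Clca3b the nearest were Naa40 (0.999), Lrrc42 (0.997), Wdr82 (0.997), Axin2 (0.997) and Cd38 (0.996). Axin2, a target gene of Wnt signalling in the crypt, was at 8.91 and 7.52 FPKM in AIR + MPLA, 2.95 and 4.26 FPKM in AIR, and 13.3 and 16.2 FPKM in Control, the same order of groups as Clca3b. Naa40, Lrrc42, Wdr82 and Cd38 had that order too. For Clca4a the nearest were Slc28a2 (0.994), Rap2b (0.991), Dfna5 (0.990), Hbegf (0.989) and Dnajb9 (0.989). Slc28a2, a nucleoside transporter of the villus list, was at 9.35 and 18.5 FPKM in AIR + MPLA, 153 and 34.8 FPKM in AIR, and 7.25 and 19.1 FPKM in Control, with AIR replicate 1 far above AIR replicate 3 as for Clca4a. For Clca1 the nearest were Slc37a2 (0.993), Fcer1g (0.986), Ero1lb (0.982), Tlr2 (0.977) and Tmem158 (0.976), none of them in the goblet cell list. For Clca4b they were Nlrp9b (0.986), Fam69a (0.981), Atg14 (0.957), Osbpl3 (0.951) and Adh6a (0.946).

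The same r was taken between each member and every gene tested in the goblet cell, villus and crypt lists, and single genes of a list went different ways. Its median over all genes tested was not taken, so how usual the list values are is not known. The members were also selected on these same levels. Against the 26 goblet cell genes Clca1 had a median r of -0.21, with 9 above 0, and the range ran from -0.89 for Galnt12 to 0.83 for Ccl6. Against the 29 crypt genes its median was 0.74, with 28 above 0. Clca3b had a median of 0.93 against the crypt genes, with 28 of 29 above 0, and of -0.48 against the 32 villus genes, from -0.98 for Nt5e to 0.93 for Lct. Clca4a had a median of 0.49 against the villus genes, with 22 of 32 above 0, from -0.92 for Xpnpep2 to 0.99 for Slc28a2, and of -0.71 against the crypt genes. Clca4b had a median of 0.02 against the villus genes, -0.13 against the crypt genes and -0.53 against the goblet cell genes. Galnt12 and Xpnpep2 are named because they end a range, after their values were seen.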

How the data were processed

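Frozen crypts gave RNA by Trizol, and an Illumina TruSeq kit made the libraries, per the labels' protocols. Cufflinks, HISAT2, HTSeq and Trimmomatic are named with the build GRCm38.p6, per the submitters' processing notes. Their versions, order and strand setting are not given in the sources, so antisense partners cannot be told apart. The deposited values are FPKM, also in the columns headed as counts: in 5 of 6 libraries all 21878 values equal the series table within 1e-06. For Control replicate 2 the own file and the series column matched to it differ. Its own file was used and the series table was an alternative. The series headings of the irradiated libraries name their group. Those taken as Control do not name it, and they were assigned by replicate number and by elimination. The link of the differing column to Control replicate 2 is therefore inferred. Groups came from sample titles. As the values are FPKM, no count test was run.

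The 10415 genes that reached 1 FPKM in 2 or more of the 6 libraries were tested on log2(FPKM + 1), which understates the change of low genes, with limma 3.58.1 in R 4.3.3: 1 mean per group, 3 residual degrees of freedom, mean-variance trend, robust empirical Bayes, Benjamini-Hochberg adjusted p at 0.05, two-sided. The fit was tested on simulated data. The members and lists were chosen with earlier results of these data known. Named genes were all Clca genes, the 2 called genes of each list with the smallest p in each direction in the first 2 comparisons, the 5 genes most like each member (predicted genes left out), tested neighbours of the cluster, and Ano1, Cftr, Spdef, Muc2 and Lgr5; some of these are given only by list counts. Gene IDs matched RefSeq for 21727 of 21878, 27 symbols turned into dates were restored by ID, and 99.2% of the genes tested had a GC content. Alignments used mafft 7.526, and tables and figures Python 3.11.15, pandas 2.3.3 and matplotlib 3.10.9. Alternatives were another pseudocount, no filter, 2 scalings, GC correction, the other version of Control replicate 2, each library left out, and a replicate block.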

Additional observations from a re-analysis of the deposited data

How the results depend on the processing

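With 2 libraries a group and 3 residual degrees of freedom, counts of calls move with 1 library. In AIR against Control, 2786 genes were called: 838 higher and 1948 lower, or 1228 higher and 1124 lower with median-ratio scaling, 1241 and 1320 with GC correction, and 967 and 1517 with upper-quartile scaling. The count was 6490 with the values of Control replicate 2 from the series table and 124 to 4329 with 1 library left out, lowest without AIR replicate 1 and highest without Control replicate 2. In AIR + MPLA against AIR, 3060 were called (2029 higher, 1031 lower), against 1078 higher and 1453 lower with median-ratio scaling, 1198 and 1267 with upper-quartile scaling, 1403 with GC correction, 1181 with no filter, 5724 with the series-table values and 0 to 4893 with 1 library left out. Without any 1 irradiated library limma called 0, with 2457 to 3665 genes at an unadjusted p under 0.05. In AIR + MPLA against Control, 154 were called, against 73 with no filter, 1108 with the series-table values, 282 with GC correction and 13 to 1645 with 1 library left out, lowest without AIR + MPLA replicate 1 and highest without Control replicate 3. Spdef in AIR against Control was -0.33 with the series-table values (adjusted p = 0.0421), and the cause was not tested. Clca4b in AIR + MPLA against Control was -1.29 with the series-table values and -0.94 with GC correction. In AIR + MPLA against AIR with GC correction, Clca1 was at 0.48, Clca3b at 1.69, Clca4a at -2.26 and Clca4b at -0.86. Clca4b in AIR against Control was 0.18 in the main fit and -0.08 with GC correction.

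Replicate numbers are shared by the AIR + MPLA and AIR groups only. Their same-numbered deviations correlated at -0.33 over 10415 genes. This value rests on the same few libraries for every gene, so it cannot decide whether the numbers pair the samples. With the replicate block 3562 genes were called, and 5722 with the crossed pairing, which was chosen after seeing the data. No counting limit can be given without the read depth.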
